A study of Mus musculus with 12 samples.

Results

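Among 12 mouse samples measured on one-colour Agilent arrays, 9 were induced pluripotent stem (iPS) lines, and these split into a Meg3-low class of 2 lines and a Meg3-high class of 7. The members were chosen by the measured values of Meg3 and Rian on these same arrays: BOiPS#2 and POiPS#1 had low levels of both RNAs, and BOiPS#1, SOiPS, OOiPS#1, OOiPS#2, POiPS#2, OOiPS-TTF#1 and OOiPS-TTF#2 had high levels. The question was which autosomal genes outside the imprinted cluster that holds Meg3 also had separate levels in the 2 classes. Since the same arrays chose the classes, every difference between them is given as a description, with no p-value for any gene.

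In the Meg3-low class, BOiPS#2 had been made from embryonic fibroblasts with Bmi1, a Polycomb protein, and the transcription factor Oct4. POiPS#1 came from neural stem cell (NSC)-like cells of embryonic fibroblast origin, treated with purmorphamine, an agonist of the hedgehog pathway, and then given Oct4. BOiPS#1 and POiPS#2 had been made in the same 2 ways but belong to the Meg3-high class. The other 5 Meg3-high lines had all been given Oct4 as well: SOiPS after the hedgehog ligand Shh, OOiPS#1 and OOiPS#2 after oxysterol, and the 2 OOiPS-TTF lines with oxysterol on adult tail-tip fibroblasts. Thus Oct4 was common to all 9 lines, and Bmi1 and purmorphamine were each used in 1 line of either class. The 3 other samples were references: embryonic stem (ES) cells of 129/Ola mice, mouse embryonic fibroblasts (MEF), and NSC-like spheres of fibroblasts transduced with Bmi1. Each line was hybridised once, so the spread within a class is the spread between lines. The labels give neither the strain of the fibroblasts nor the passage of the lines.

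Levels are log2 processed signals minus the 75th percentile of the array's gene spots, so that 0 is that percentile and a difference of 1 is 2-fold. Levels of different probes are on different scales and were not ranked against each other. A spot well above background is one that the scanner software marked so, and levels of spots not so marked have no order among themselves. The classes are called separate for a gene when both Meg3-low arrays lay above, or both below, all 7 Meg3-high arrays, and the gap is the distance between the nearest arrays of the 2 classes.

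Meg3 lies in the Dlk1-Dio3 domain, an imprinted cluster on mouse chromosome 12. From the maternal chromosome the domain gives rise to long non-coding RNAs, among them Meg3, Rian (a host of small nucleolar RNAs) and Mirg (a host of microRNAs), and from the paternal chromosome to the protein-coding genes Dlk1, Rtl1 and Dio3. A methylated region between Dlk1 and Meg3 marks the paternal copy and governs which genes of the domain are active. Loss of the maternal RNAs through methylation of both copies is a known variation between mouse iPS lines; DNA methylation was not measured here.

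The array carried 17 probes between Dlk1 and Dio3, on chromosome 12 from 106981450 to 107799226 (coordinates of the mm7 build), of which 5 were for Meg3, 2 for Rian and 1 for Mirg. The probes for the RNAs that chose the classes, and for their neighbour Mirg, show which stretches of the transcripts were read. They are given 5′ to 3′, each of 60 bases on the plus strand of chromosome 12. The first Meg3 probe (chr12:107092697-107092756) stands for the gene because it was the brightest. The second (chr12:107082578-107082637) was not well above background on either Meg3-low array, and the third (chr12:107083918-107083977) was the one Meg3 probe whose classes overlapped. Both Rian probes (chr12:107172103-107172162, the brighter, and chr12:107180614-107180673) and the Mirg probe (chr12:107261346-107261405) follow.
Meg3, first probe: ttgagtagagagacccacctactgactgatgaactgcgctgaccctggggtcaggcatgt
Meg3, second probe: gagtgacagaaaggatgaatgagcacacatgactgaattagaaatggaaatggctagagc
Meg3, overlapping probe: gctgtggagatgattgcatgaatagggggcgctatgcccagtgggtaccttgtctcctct
Rian, first probe: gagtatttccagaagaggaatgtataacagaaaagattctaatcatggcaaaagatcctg
Rian, second probe: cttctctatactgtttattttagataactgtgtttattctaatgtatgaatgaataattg
Mirg: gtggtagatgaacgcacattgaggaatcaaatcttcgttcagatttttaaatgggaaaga

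On the first probe, Meg3 was at a log2 level of -6.13 in BOiPS#2 and -4.51 in POiPS#1. In the 7 Meg3-high lines it ran from 2.20 over a median of 2.67 to 3.41, with a mean of 2.70 ± 0.43 (SD, n = 7). The classes lay far apart, with OOiPS-TTF#1 the lowest of the high lines and POiPS#1 the higher of the low ones. The gap between those 2 arrays was 6.70 on the log2 scale, or 104-fold, the largest of all 24217 genes tested. The low mean minus the high mean was -8.02, a 259-fold difference, and Meg3 is one of the genes that chose the classes. Among lines made the same way, the level in BOiPS#2 minus that in BOiPS#1 was -8.36 and that in POiPS#1 minus POiPS#2 was -7.12.

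Rian was at -4.48 in BOiPS#2 and -5.88 in POiPS#1, against -0.63 to 1.23 in the Meg3-high lines (median 0.18). Its gap of 3.85 (14.4-fold) was second to that of Meg3 among all genes tested. Of the 2 low lines, BOiPS#2 had the higher Rian level on the first Rian probe and the lower Meg3 level on the first Meg3 probe. The order of these lines in Meg3 differed between Meg3 probes, so no contrast between the 2 RNAs is drawn. Of the Meg3-low arrays, 1 of 2 read Rian well above background on the first Rian probe, and neither did so on the second Rian probe. For such probes a bound was taken between class means, with each dim array of the low class raised to its floor, the lowest signal among its probes well above background. By this measure the mean of the 7 Meg3-high lines was at least 58.9-fold above that of the low lines on the second Rian probe and at least 85.5-fold on the second Meg3 probe; single lines lie nearer, with BOiPS#1 at -1.89 on the former and OOiPS-TTF#1 at -0.19 on the latter.

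In all, 4 of 5 Meg3 probes and 2 of 2 Rian probes separated the classes. The third Meg3 probe was at -2.67 in BOiPS#2 and -3.10 in POiPS#1, within or next to the range of -3.05 to -0.75 in the Meg3-high lines. It was also as low in MEF (-3.71), where the first Meg3 probe was high (3.01).

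Mirg, which the choice of the classes did not use but which lies in the same domain, was at -9.00 in BOiPS#2 and -7.13 in POiPS#1, both not well above background. Of the Meg3-high lines, 6 of 7 had it well above background, at -2.08 to 0.15, and OOiPS#1 did not, at -6.81. The mean of all 7 Meg3-high lines was 16.8-fold above the mean floor of the low lines. This is not a bound, since the dim OOiPS#1 signal entered that mean as measured. OOiPS#1 combined a Meg3 level of 3.41, the highest of all 9 lines, with a Mirg signal not above background, so it has no order against the low lines, and the classes are not counted as apart for Mirg.

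The protein-coding ends of the domain did not follow Meg3. Dlk1, a membrane protein related to Notch ligands, was at -3.12 and -2.72 in the Meg3-low lines and at -3.40 to -0.49 in the Meg3-high lines. Dio3, which inactivates thyroid hormone, was at -0.21 in BOiPS#2 and -3.09 in POiPS#1, so that the 2 low lines spanned most of the range of the high ones (-3.46 to 0.42). Its antisense neighbour Dio3os had a class difference of 1.07 but overlapped by a small margin, with POiPS#1 at -1.82 and OOiPS#2 at -1.76. Rtl1 was not among the genes tested, and the 3 other tested transcripts of the domain (AK049674, AK086774 and NAP070880-1) overlapped between classes.

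**Figure D1:**
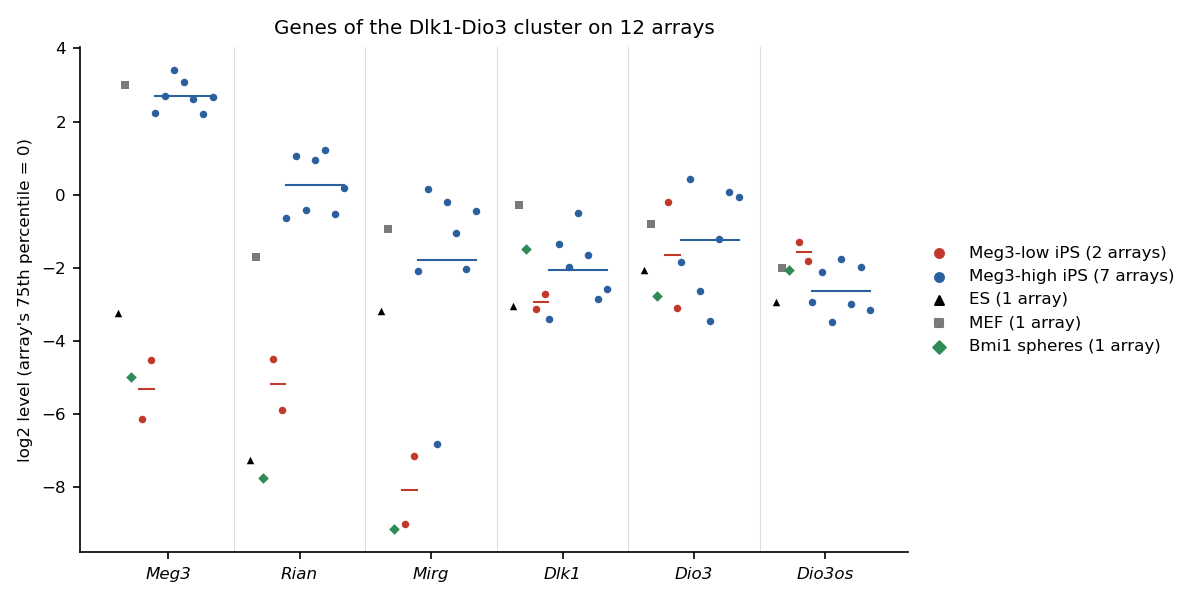
Log2 levels of 6 genes of the Dlk1-Dio3 domain (vertical axis, 0 is the array's 75th percentile) on all 12 arrays, each point 1 array, with horizontal bars at the mean of the 2 Meg3-low and of the 7 Meg3-high lines. Meg3 and Rian are far apart in the 2 classes by choice, Mirg is at -6.81 on 1 Meg3-high array, and Dlk1, Dio3 and Dio3os overlap.

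The 3 reference arrays, which had no part in the choice, also differed in these RNAs. MEF had Meg3 at 3.01, within the range of the Meg3-high lines, and Rian at -1.69 on its first probe, below their range. On the second Rian probe MEF was at 1.17, above the range of the Meg3-high lines (-1.89 to 0.76), so its place depended on the probe. ES cells had Meg3 at -3.22 and Rian at -7.26, the latter not above background, nearer to the Meg3-low lines, whereas Mirg was above background in ES (-3.19). The Bmi1 spheres had Meg3 at -4.97, Rian at -7.74 and Mirg at -9.15. Each reference is 1 array, so these are values of 1 sample.

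Of 35 genes tested within 1000 kb on either side of the domain, 2 separated the classes, beside 3.28% of all genes with the Meg3-low lines above and 1.95% below: Wdr20 (class difference 1.02) and the transcript AY512946 (0.43), both with the Meg3-low lines above and both on the Dio3 side. The class differences of the 35 ran from -1.64 to 1.02, against -8.02 for Meg3.

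The arrays themselves were of unequal depth. Between 58.4% and 80.0% of gene spots were well above background, with the lowest share in SOiPS, and the array floors ran from -7.27 to -4.20. The pluripotency markers Pou5f1, Sox2, Nanog, Zfp42, Esrrb, Dppa5a, Lin28a and Sall4 were all well above background on every iPS array, and their summed linear level was 174 to 180 times the 75th percentile in the Meg3-low class and 153 to 225 times in the Meg3-high class. Over 24174 genes the Meg3-low lines had correlations with the ES array of 0.926 and 0.933 and the Meg3-high lines of 0.901 to 0.930, a description of profiles that share most genes. The Meg3-low arrays were on slides 1 and 3 of 3, and slide 2 held Meg3-high lines only.

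Outside the domain, 22836 autosomal genes were compared. The Meg3-low lines lay above all Meg3-high lines for 749 genes, 3.28% of those tested, and below for 445, or 1.95%. Neither count asked for signals well above background, so part of them rests on an order among dim signals. With every signal under the highest array floor set to that floor, they were 658 and 338. Members of the gene lists below were counted by the same rule as the 749 and 445. Under normexp background correction the split was 629 above and 656 below, so the excess of genes above depended on how the background was handled. The median class difference over all genes was 0.05. A stricter class asked for a gap of at least 2-fold with every array of the higher class well above background. It held 40 genes with the Meg3-low lines above (0.175%) and 19 with them below (0.0832%). With limma's moderated test and Benjamini-Hochberg adjustment at 0.05 over all 24217 genes tested, 1 of the 22836 genes was called between the classes (0.00438%). That adjustment included Meg3 and Rian, which chose the classes, so it is not a call over the 22836 genes alone. Without adjustment, 1026 genes had a p under 0.05. All these counts are descriptions only, since the arrays tested are the arrays that chose the classes. Other pairs of lines may also lie apart from the rest for some genes, and their shares were not computed.

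The 40 and 19 genes rest on signals near background and on both low lines. When every signal under the highest array floor was set to that floor, an alternative added after seeing the data, they were 15 and 14, and with normexp 11 and 7. Without BOiPS#2 they were 340 and 183, and without POiPS#1 431 and 127. By the rule itself these counts cannot fall when a low line is left out, because fewer arrays must then be separate.

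**Figure D2:**
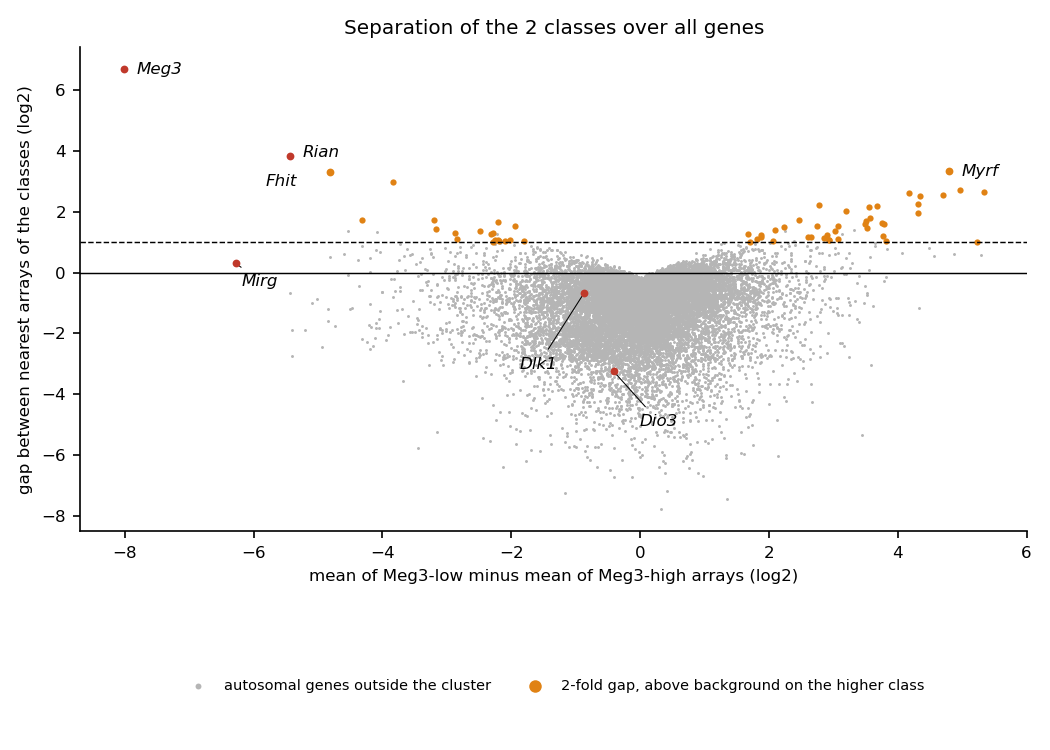
Each grey point is 1 of 22836 autosomal genes outside the domain, with the Meg3-low minus Meg3-high class difference (horizontal axis, log2) against the gap between the nearest arrays of the classes (vertical axis, log2; above 0 the classes are separate, and the dashed line is 2-fold). Orange points are the 59 genes with a 2-fold gap and signals above background on the higher class, and red points are genes of the domain, with Meg3 (6.70) and Rian (3.85) above all others.

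The gene with the largest measured gap above was Myrf, which encodes a membrane-bound transcription factor known from myelinating oligodendrocytes. It was at -2.10 in BOiPS#2 and -1.54 in POiPS#1, against -7.35 to -5.43 in the Meg3-high lines (median -6.87), of which 2 of 7 were above background. Both low lines stood near the ES array (-2.61) and apart from MEF (-6.79). The measured class difference was 4.79 and the gap 3.33, both set against mostly dim signals, and with each dim signal raised to its own array's floor, another alternative added after seeing the data, the gap was 2.10. A second, dimmer Myrf probe, above background on neither low line, overlapped between classes and had the opposite sign (-1.07), so the separation holds for 1 of 2 probes.

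Mybpc2, a myosin-binding protein of fast skeletal muscle, showed the same order at a higher signal. Its levels were 0.46 in BOiPS#2 and 0.17 in POiPS#1, against -7.11 to -1.54 in the Meg3-high lines (median -2.41), and -0.23 in ES and -5.98 in MEF. Here 6 of 7 Meg3-high lines had signals above background, with OOiPS#1 the exception. Mybpc2 and Myrf were the 2 of these 12 genes for which ES cells lay near the low lines.

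Thsd7a, a membrane protein with thrombospondin repeats, was at -2.03 and -1.43 in the Meg3-low lines and at -6.99 to -4.54 in the others, with ES at -7.16 and MEF at -6.44. Neither reference resembled the low lines in this gene. Gipc2, a PDZ-domain protein, was at -1.50 and -2.00 in the low lines and at -6.90 to -3.52 in the high lines, with the sphere array at 3.60 and MEF at -1.36. Prss2, a trypsin of the pancreas, was at -4.01 in BOiPS#2 and -1.99 in POiPS#1, against -7.78 to -5.61, and Bcas3os2, an antisense RNA, at -3.83 and -3.38 against -9.40 to -5.63. For Bcas3os2 MEF was at -3.28, above both low lines. Of the 7 Meg3-high lines, 3 were above background for Thsd7a, 4 for Gipc2, 3 for Prss2 and 1 for Bcas3os2, so these ranges include dim signals.

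In 6 of the 12 genes no Meg3-high line was above background, so only a bound can be given for the class difference. By these bounds the Meg3-low lines were at least 5.39-fold higher for Mindy4, a deubiquitinase family member, at least 5.01-fold for the olfactory receptor gene Olfr1241, at least 3.84-fold for Ube2ql1, of the ubiquitin-conjugating enzyme family, at least 3.69-fold for the vomeronasal receptor gene Vmn1r148, at least 3.09-fold for Pih1d2 and at least 1.83-fold for the cystatin Cst12. The ES array did not have the levels of the low lines in any of these 6: its signals were -7.39 to -6.53, and those of the 2 low lines -4.78 to -2.34. The Bmi1 spheres were at -1.55 for Vmn1r148, above both low lines (-3.07 and -4.40). For Cst12 they were at -4.92, close to the low lines (-4.71 and -4.78). In the rest of the 6 genes the spheres were at -7.50 to -5.59, below both low lines. Of the 12 genes, 8 kept the classes separate under all 5 other treatments of the signal (normexp, quantile scaling, scaling on detected probes, the mean of all probes, and raised floors). The exceptions were Myrf with the mean of its probes, and Ube2ql1, Cst12 and Vmn1r148 with raised floors. The same 3 genes were not separate with each dim signal at its own array's floor, where the other 9 had gaps of 0.05 to 2.17.

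Of the 40 genes above, 20 had a gene symbol, and 9 of the 40 were dim on all Meg3-high arrays. The symbols beyond the 12, given here after their values were seen, were Ptpn9, Kcnq3, Noxo1, Flt3, Crygf, Zfp956, Ralyl and Eef1akmt1, with class differences of 1.68 to 3.82. The other 20 were clone and predicted transcripts. The 40 genes were spread over 15 autosomes, with 6 on chromosome 6 and at most 4 on any other.

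In the opposite direction the largest measured gap was that of Fhit, a hydrolase of dinucleoside polyphosphates encoded at a common fragile site. Fhit was at -6.24 in BOiPS#2 and -6.93 in POiPS#1, against -2.93 to -0.76 in the Meg3-high lines (median -1.61). All 7 high lines had it above background and 1 of 2 low lines did. Unlike for Myrf, the ES array (-0.42) lay on the side of the high lines, above all 7 of them, and MEF (-1.28) was within their range. The 2 low lines were thus the lower ones among all pluripotent arrays, with the spheres at -6.11 beside them. The measured class difference was -4.82 and the gap 3.31, and with the dim POiPS#1 signal raised to its array's floor the gap was 1.89.

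Ttc39c, a tetratricopeptide repeat protein, was at -4.83 in BOiPS#2 and -5.36 in POiPS#1, against -1.85 to 0.04 in the Meg3-high lines. ES cells, at -4.66, were like the low lines, and MEF (-0.39) like the high ones. Its 2 dimmer probes did not separate the classes but had the same sign. Nfix, a transcription factor of the nuclear factor I family, had the same order, with -4.23 and -5.95 in the low lines, -2.50 to 1.38 in the high lines, -4.93 in ES and 2.05 in MEF. A second, dimmer Nfix probe overlapped between classes, with a difference of -0.13. Pdpn, a mucin-type membrane glycoprotein, was at -3.78 and -3.34 in the low lines, -2.24 to 0.34 in the high lines, -3.66 in ES and 0.53 in MEF. In these 3 genes the Meg3-low lines thus stood with ES, and the Meg3-high lines lay between ES and MEF, except BOiPS#1 for Ttc39c.

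Gstm5, a glutathione S-transferase, was at -2.63 and -3.96 in the low lines against -0.89 to 0.63, with ES (-0.78) within the range of the high lines. Fam177a was at -1.53 and -1.40 in the low lines against 0.12 to 0.71, with a mean of 0.48 ± 0.23 (SD, n = 7) in the high lines and -1.06 in ES. A second Fam177a probe, above background on all 9 lines, overlapped, at -1.22 and -1.07 against -1.27 to 0.31. Atxn1, a chromatin-associated protein, was at -1.48 and -1.86 against -0.16 to 2.00, and ES at -1.10. For Fam177a and Atxn1 the ES array lay between the classes, nearer to the low lines. A second probe of Atxn1 (difference -1.07) and of Pdpn (-1.45), each above background on all 9 lines, overlapped between classes with the same sign.

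The remaining 5 of the 12 genes below had class differences of -3.17 to -2.21. They were Mpp3, a membrane scaffold protein (gap 1.42), Chst11, a chondroitin sulfotransferase (1.37), the neuronal calcium sensor Hpca (1.29), Itpr2, an inositol trisphosphate receptor (1.26), and the vomeronasal receptor gene Vmn2r57 (1.66). Each was above background on all 7 high lines and on 1 of 2 low lines. Itpr2 was also separate on a second of its 4 probes, with a difference of -1.39, while another had the opposite sign (0.09). Another Chst11 probe, above background on all 9 lines, overlapped between classes with the same sign (-0.84). Of the 12 genes, 10 stayed separate under all 5 other treatments of the signal. Chst11 overlapped with the mean of its probes and Hpca with raised floors. With each dim signal at its own array's floor, the other 11 had gaps of 1.11 to 2.97. The symbols beyond the 12, given after their values were seen, were Aga, Foxc1, Dock9, Golim4, Hs3st3b1 and Pld1, with differences of -2.28 to -1.80.

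**Figure D3:**
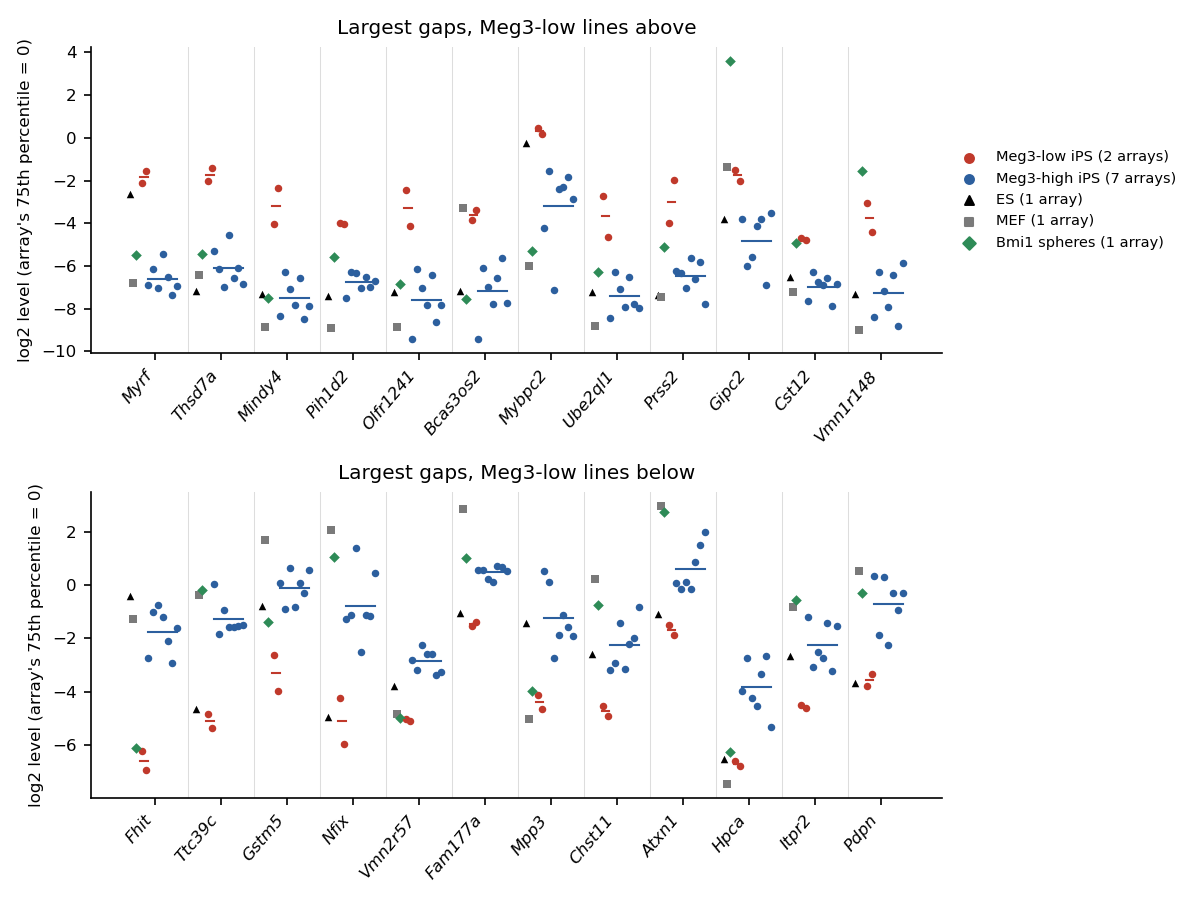
Log2 levels (vertical axes, 0 is the array's 75th percentile) of the 12 genes with the largest gap in each direction, 1 point per array, with bars at the class means. Levels near the lower end are not well above background and have no order; ES points lie near the Meg3-low lines for Myrf and Mybpc2 in the upper panel and for Ttc39c, Nfix and Pdpn among others in the lower one.

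Within slides the sign of a gene with separate classes is fixed by that choice, so the values only give the sizes. Between the 2 classes, slide 1 compares BOiPS#2 with BOiPS#1 and slide 3 compares POiPS#1 with the 2 tail-tip lines. Meg3 differed by -8.36 on slide 1 and -6.94 on slide 3, Rian by -3.85 and -5.70, Myrf by 4.76 and 5.62, and Fhit by -3.49 and -4.66. With the slide as a fixed block, the class differences were -7.55 for Meg3, -4.91 for Rian, 5.25 for Myrf and -4.16 for Fhit, and limma called no gene (1108 at an unadjusted p under 0.05).

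Of the 19 genes below, 13 (68.4%) were at least 2-fold higher in MEF than in ES, and of the 40 above, 9 (22.5%). These shares are not comparable, nor is either with the 20.2% of all autosomal genes tested, since the 19 had to be above background on 7 arrays and the 40 on 2. Over 30 fibroblast genes the mean log2 level was -2.01 in BOiPS#2 and -1.82 in POiPS#1, close to ES (-2.11), and in the Meg3-high lines it ran from -2.31 in OOiPS-TTF#1 to 0.61 in POiPS#2 and 1.11 in OOiPS-TTF#2, with MEF at 3.25. The classes overlapped in this measure, since OOiPS-TTF#1 and OOiPS#2 (-1.91) were as low as the Meg3-low lines, and its part in the 19 genes was not tested. In bulk RNA, fewer fibroblasts and less RNA per cell cannot be told apart.

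Of the 30 fibroblast genes, 1 was separate and below, beside 1.95% of all genes: Twist1, a transcription factor of mesenchyme, at 0.97 and 1.24 in the low lines against 1.47 to 2.08, and ES at 0.94. The list's median difference was -0.83, against 0.05 over all genes. Without the 3 lines whose profiles were nearest to MEF (BOiPS#1, POiPS#2 and OOiPS-TTF#2) this median was -0.24. Among 9 measured defining markers of fibroblasts, 6 were above background on both low lines, and Dcn was above background on neither. The summed linear level of the 9 was 4.34 to 5.77 times the 75th percentile in the low class and 3.74 to 46.0 times in the high class. Leaving those 3 lines out, 98 genes had a 2-fold gap above and 64 below.

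Interferon-stimulated genes had a median difference of -0.64 over 19 measured members, beside 0.05 over all genes, and 2 were separate, both with the Meg3-low lines below, beside 1.95% of all genes. Ifi44 was at -4.34 and -4.59 in the low lines and at -4.22 to 2.41 in the high lines, and Ifit2 at -4.05 and -4.07 against -3.84 to -2.15. For Ifi44 the gap of 0.13 was small against the spread of the high lines (SD 2.75), because SOiPS, OOiPS#2 and OOiPS-TTF#1 were nearly as low. Both genes overlapped with the mean of their probes, and Ifi44 also with raised floors. The list's mean level was 0.08, 0.15 and 0.51 in BOiPS#1, POiPS#2 and OOiPS-TTF#2, the lines nearest to MEF, and without them the median difference was -0.24. Of these 3 lines, POiPS#2 and OOiPS-TTF#2 also had the highest fibroblast levels.

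**Figure D4:**
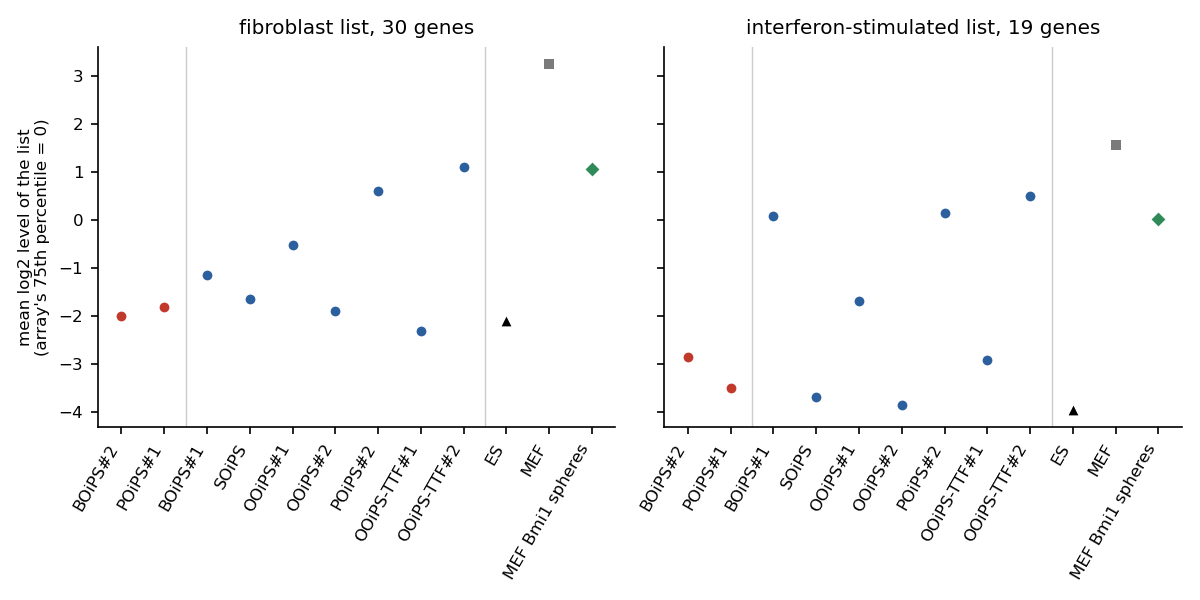
Mean log2 level (vertical axis, 0 is the array's 75th percentile) of 30 fibroblast genes (left) and 19 interferon-stimulated genes (right) on each array, red for Meg3-low and blue for Meg3-high lines. BOiPS#1, POiPS#2 and OOiPS-TTF#2 have the 3 highest interferon values of the iPS lines, and OOiPS#2 and OOiPS-TTF#1 lie as low as the 2 Meg3-low lines in the fibroblast list.

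Imprinted genes outside the Dlk1-Dio3 domain were mostly alike in the 2 classes. Of 53 measured, 2 had the Meg3-low lines above, beside 3.28% of all genes, and 3 had them below, beside 1.95%, and the median difference was 0.07, beside 0.05 over all genes. None had a 2-fold gap. Most of the 5 lay in 1 other domain: Kcnq1ot1, the paternally expressed non-coding RNA of the Kcnq1 domain on distal chromosome 7, was above, and 2 genes of the same domain known for maternal expression, Osbpl5 and Cdkn1c, were below. The list holds further members of that domain, given below, and a link between these genes was not tested.

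Kcnq1ot1 was at 0.93 in BOiPS#2 and 0.91 in POiPS#1, against -0.25 to 0.28 in the Meg3-high lines (mean 0.05 ± 0.20, SD, n = 7), with ES at 0.35. Both low lines exceeded ES as well. Osbpl5, a lipid-binding protein, was at -1.05 and -0.68 in the low lines and at -0.05 to 2.04 in the high lines, with -1.18 in ES and 4.07 in MEF. Cdkn1c, the cell-cycle inhibitor p57, named after its values were seen, was at 0.83 and -1.03 against 0.98 to 2.75 in the high lines, with 2.80 in ES.

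Other genes of the Kcnq1 domain did not follow these 3. Phlda2 (class difference -0.36), Ascl2 (-0.25), Kcnq1 (0.16), Slc22a18 (0.30), Tssc4 (0.33) and Cd81 (0.07) all overlapped between classes. The dimmer second probe of Kcnq1ot1, above background on neither low line, overlapped too, and with the mean of both probes the gene was no longer separate.

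Of the other 2 imprinted genes, Snurf, the upstream reading frame of the Snrpn transcript, was at -1.05 and -0.56 in the low lines against -2.82 to -1.64, with ES at -2.31. Its partner Snrpn overlapped, at -0.08 and 0.09 against -0.97 to 0.16. Copg2, also named after its values were seen, was at -0.29 in BOiPS#2 and -1.47 in POiPS#1 against -0.21 to 0.88, and its neighbour Mest was at 0.47 in BOiPS#2 but -3.87 in POiPS#1, so that 1 low line accounts for its class difference of -2.10. H19 and Igf2, the best known imprinted pair, overlapped, at -0.61 and -1.42 against -2.60 to 3.80 for H19 and at -3.33 and -0.57 against -2.32 to 2.79 for Igf2.

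**Figure D5:**
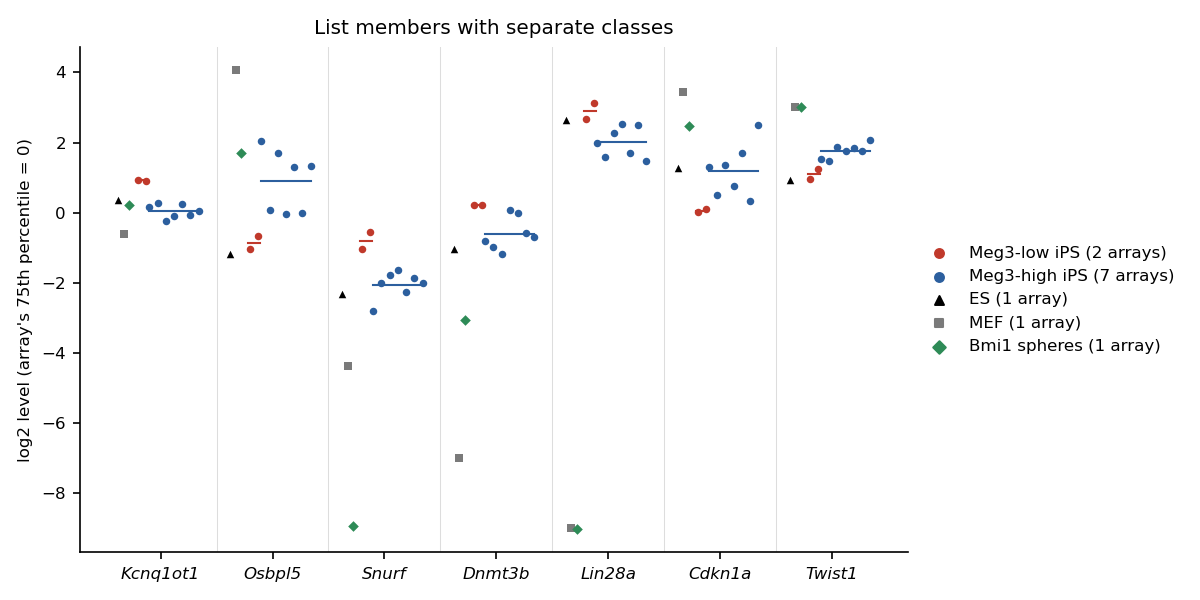
Log2 levels (vertical axis, 0 is the array's 75th percentile) of 7 members of the gene lists whose classes were separate, 1 point per array with bars at the class means. Kcnq1ot1, Snurf, Dnmt3b and Lin28a lie above in the 2 Meg3-low lines and Osbpl5, Cdkn1a and Twist1 below, with gaps of 0.13 to 0.63.

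The machinery that sets and keeps imprints was measured with 21 genes, and 1 of them was separate and above, beside 3.28% of all genes. Dnmt3b, a de novo DNA methyltransferase, was at 0.23 and 0.21 in the low lines against -1.17 to 0.07 in the high lines, with ES at -1.05; the gap was 0.14, and under normexp the classes overlapped. Dnmt3a (-0.59), Dnmt3l (0.41), Dnmt1 (-0.06), the imprint-protecting zinc finger protein Zfp57 (-0.08), Trim28 (0.31), Dppa3 (-0.62), Tet1 (0.18) and Tet2 (-0.07) had the class differences given in brackets and overlapped. None of 11 Polycomb complex 2 genes was separate, among them Ezh2 (0.37), Jarid2 (0.04), Suz12 (0.09) and Eed (0.98).

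Of 21 pluripotency genes 1 was separate and above, likewise beside 3.28% of all genes, and the median difference was 0.10, beside 0.05 over all genes. Lin28a, an RNA-binding protein that blocks let-7 maturation, was at 2.67 and 3.14 in the low lines against 1.47 to 2.54, with ES at 2.64, and under normexp it overlapped. Pou5f1 (0.16), Sox2 (-0.36), Nanog (0.14), Zfp42 (-0.03), Esrrb (0.22) and Sall4 (0.02) had the class differences given in brackets and overlapped, as did Gdf3, a TGF-beta family ligand, in spite of a larger difference (1.26).

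In signalling, cell-cycle and lineage lists, 0 to 2 members each were separate, to be read beside the 3.28% above and 1.95% below over all genes. Of 21 genes of p53 and its targets, Cdkn1a, the cell-cycle inhibitor p21, was at 0.01 and 0.11 in the low lines against 0.32 to 2.49, with ES at 1.28 and MEF at 3.44. In the TGF-beta and BMP list (29 genes), the ligand Bmp4 was above with a gap of 0.07 and the signal transducer Smad5 below with a gap of 0.02, and Bmp4 was no longer separate under quantile scaling or scaling on detected probes. Lama1, a laminin chain of the primitive endoderm list (19 genes), was at 1.59 and 1.25 against -0.67 to 0.83, with ES at 2.81. Esrp2, a splicing factor of epithelia (19 genes), was above with a gap of 0.18. Smad5, Lama1 and Esrp2 were no longer separate with the mean of their probes.

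Among 14 genes of primed epiblast and mesoderm, Tbx6, a T-box factor of paraxial mesoderm, was at -6.30 and -5.11 in the low lines against -4.48 to -1.05, above background on 1 of 2 low lines and overlapping with raised floors, and Otx2, a homeobox factor of the epiblast, at -3.09 and -2.99 against -2.64 to 0.02. Of 16 germline and 2-cell genes, Piwil2 and Mov10l1, which act in the piRNA pathway, lay below, with differences of -1.26 and -1.58. For Mov10l1 the gap was 0.02, and it was lost under normexp, quantile scaling and the mean of its probes. Myod1, a muscle transcription factor, lay above by a gap of 0.26 in the list of blood, endothelial and muscle genes (11). No member was separate in the trophectoderm (8 genes), neural (14), immediate early and stress (11), glycolysis (15) and control (12) lists.

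Genes linked to the X and Y chromosomes overlapped as well (7 measured). Xist was at 3.13 and 3.64 in the low lines and 1.71 to 3.77 in the high ones. Ddx3y, on the Y chromosome, was at 1.44 in BOiPS#2 but at -6.74, not above background, in POiPS#1, whereas the 7 Meg3-high lines were at -2.67 to 2.60. Eif2s3y (-7.01) and Uty (-6.70) were likewise dim in POiPS#1. The 2 low lines were unlike in these 3 genes, whereas Kdm5d and Usp9y were above background on neither.

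The reference arrays were set against both class means. Over all autosomal genes outside the domain, ES lay nearer to the Meg3-low mean in 45.0%, and among the 40 genes above in 22.5% (9 genes) and the 19 below in 42.1% (8 genes). For MEF the shares were 41.3%, 25.0% and 21.1%, and for the Bmi1 spheres, which were also low in Meg3 and Rian, 43.1%, 35.0% and 26.3%. Since the 40 and 19 genes were chosen for extreme values in BOiPS#2 and POiPS#1, and a gene dim on a reference falls to the lower class, these shares say nothing on a link with Meg3. Each share sets 1 array against 2 class means and has no replicate error.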

How the data were processed

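Each sample was hybridised once. Signal intensity was deposited as written by Agilent Feature Extraction (version 9.5.3.1), per the file headers, with the background subtracted and with flags for spots above background, saturated or outlying. Any further step by the authors is not given in the sources used here. Outlier spots were left out, spots of a probe averaged as log2 signal, and each array's 75th percentile subtracted. Of 41174 probes, 35819 were well above background on at least 1 iPS array and complete on all 9. The probe with the highest mean stood for its gene, which left 24217 genes, 7864 of them with more than 1 probe. Genes were named through a RefSeq table by accession (23082 probes), symbol or synonym (9655), or were kept as deposited (8437). Positions are mm7, as in the array design.

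The 9 iPS arrays were fitted in limma 3.58.1 (R 4.3.3) with 7 residual degrees of freedom; the fit was tested on simulated data. p-values measure only the spread between lines. The clone number in a title did not pair lines.

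The classes, the 20 gene lists (357 of 380 genes measured) and the rules were chosen with earlier results of these data known. Named were all tested genes of the domain, the 12 genes with a proper symbol and the largest gap in each direction, above background on all arrays of the class with the higher level, and up to 3 separate members of each list. Alternatives were background correction (normexp, offset 50), scaling, the filter on dim probes, the probe per gene, slide, method and clone-number blocks, and left-out lines.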

Additional observations from a re-analysis of the deposited data

Results flagged for a closer look

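In 3 of 51 named genes, 1 of the 7 Meg3-high lines lay far from the other 6, which chance alone gives in about 1 in 20 groups. Mirg was at -6.81 on OOiPS#1, against -2.08 to 0.15 on the others, although Meg3 was highest on that array. Ifit2, an interferon-stimulated gene, was at -2.15 on OOiPS#1, against -3.84 to -3.26. Otx2, a homeobox factor of the epiblast, was at 0.02 on OOiPS-TTF#1, against -2.64 to -1.55.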

How the results depend on the processing

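The 40 genes with a 2-fold gap above and the 19 below became 11 and 7 with normexp, 98 and 64 without the 3 lines nearest MEF, 71 and 37 without the tail-tip lines, 384 and 560 with the BOiPS and POiPS lines only, and 18 and 5 with a 3-fold gap. The 40 became 15 with the filter of 5 of 9 arrays and 15 with dim signals set to the highest array floor, and the 19 became 12 with the mean of all probes. Leaving out 1 line at a time gave 47 to 431 above and 23 to 183 below. Where lines or genes were dropped, the counts rest on fewer of them. The cause of the changes was not tested for any setting. The limma count of 1 became 10 with quantile normalization and stayed at 1 with scaling on detected probes. It was 0 with normexp, no filter, the stricter filter, the mean of probes, an intensity trend, slide as a fixed or random block, method as a block, and without the 3 lines nearest MEF or the tail-tip lines, and 0 to 1 with 1 line left out, with 762 to 1118 genes at an unadjusted p under 0.05. With the clone number as a replicate block, without SOiPS, it was 0 (1115 unadjusted), and 0 with no replicate block (1108 unadjusted); same-numbered lines had correlations of deviations of -0.166 to 0.242, so the numbers do not pair them. Of 1214 alternative values for the 51 named genes, 1149 moved by less than the spread of the high lines and 65 by more, and no separate gene changed direction. SOiPS, with 58.4% of spots above background and the highest floor (-4.20), limits what can be said of dim genes.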
